A study of Homo sapiens with 16 samples.

Results

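GABPα-bound regions were compared between VCaP cells, a human prostate cancer line, and Jurkat cells, a human T-cell line, from ChIP-seq peak lists. The members are the high confidence peaks, those found by both peak callers (MACS and SWEMBL), of 4 of the 16 samples of the series. Overlapping high confidence peaks of these 4 samples were merged into 13653 regions. A region belonged to the VCaP set if it was called with vehicle and with R1881 (5137 regions) and to the Jurkat set if it was called in both replicates (6744 regions). Shared regions were called in all 4 samples (2390), VCaP-specific regions in both VCaP samples and in neither Jurkat replicate (2109), and Jurkat-specific regions in both Jurkat replicates and with neither VCaP treatment (4205). The other 4949 regions were called in another combination of samples.

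The VCaP cells had been kept for 48 h in charcoal-stripped serum and then given 1 nM of the synthetic androgen R1881 (methyltrienolone) or the same volume of its vehicle, ethanol. Each treatment has 1 sample, so the line is represented by 2 samples that differ in treatment, while Jurkat has replicates 1 and 2 with no treatment label. The GABPα antibody has the same catalogue number in all 4 samples. The study's methods state that biological replicates were used for ChIP, while the labels do not say how the Jurkat replicates were obtained. The MACS headers name 1 input for both VCaP samples and 1 other input for both Jurkat samples, and they carry different library codes for the 2 lines, so a difference between lines cannot be told apart from a difference in library handling or input. Read numbers are not in the peak lists and the depth is unknown. The labels of the lines could not be checked against marker genes, because peak lists hold no expression.

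GABPα is the DNA-binding subunit of GABP, a complex of α and β subunits in which α carries an ETS domain and β carries the activation domain. Like other ETS factors, it recognises sites with a GGAA core, and it is known for binding close to the start of many housekeeping genes, including genes of mitochondria and protein synthesis. ERG is another member of the ETS family. It is expressed in VCaP cells from a fusion with an androgen-regulated gene.

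The lines shared 2390 regions. Of the VCaP set, 46.5% was also called in both Jurkat replicates (95% Wilson interval 45.2 to 47.9%), and of the larger Jurkat set, 35.4% was called with both VCaP treatments (interval 34.3 to 36.6%). Both intervals cover counting error over regions only and treat regions as independent. A further 638 regions of the VCaP set (12.4%) were called in exactly 1 Jurkat replicate, whereas 149 regions of the Jurkat set (2.21%) were called with exactly 1 VCaP treatment. Agreement within a line was higher. R1881 recovered 84.0% of the 6114 vehicle regions and vehicle recovered 91.0% of the 5646 R1881 regions, while Jurkat replicate 2 recovered 87.4% of the 7713 regions of replicate 1 and replicate 1 recovered 72.5% of the 9296 regions of replicate 2. Every share between the lines was thus below every share within a line, but the former needs a call in 2 samples and the latter in 1. Between 1 sample of each line, 45.8% of the vehicle regions were called in Jurkat replicate 1. Of the regions of Jurkat replicate 1, 36.3% were called with vehicle, and both values were still below the shares within a line. The shared part of the VCaP set was 53.5% without Jurkat replicate 1 and 52.2% without replicate 2. With Jurkat replicate 1 left out, the Jurkat-specific regions rose in number from 4205 to 6515, since 2176 regions were called in replicate 2 alone.

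**Figure D1:**
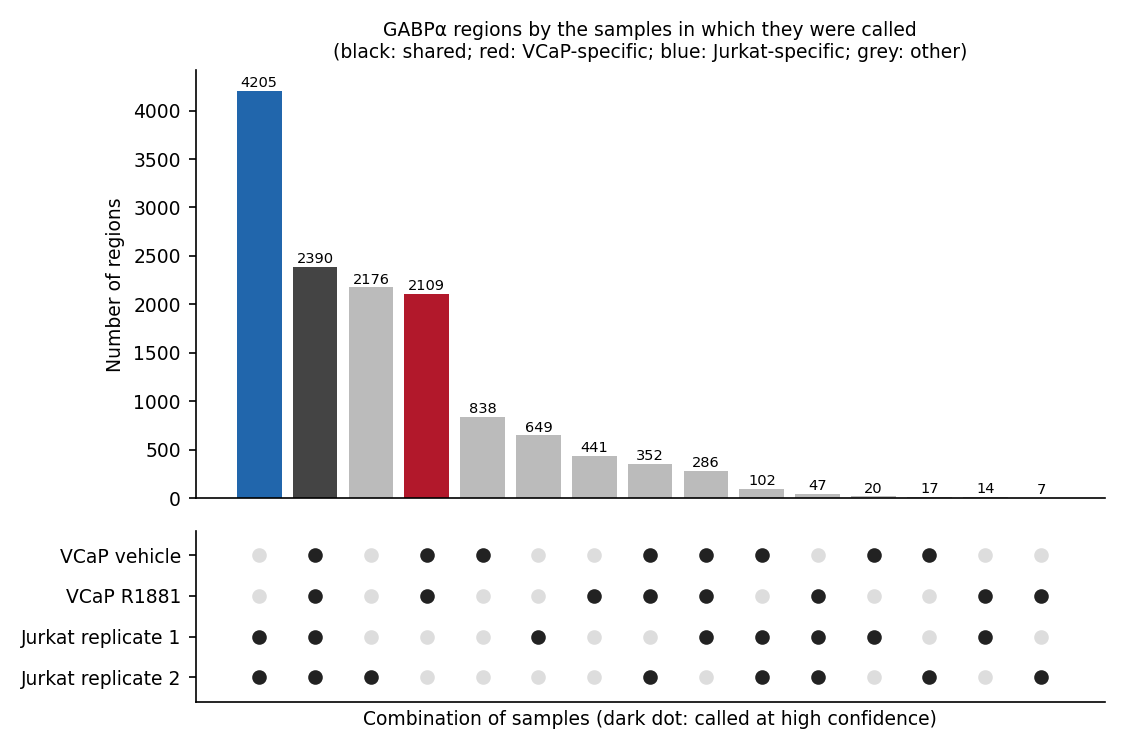
Number of GABPα regions (y axis) for each combination of the 4 samples in which they were called at high confidence (dark dots, x axis). The 4205 Jurkat-specific regions form the largest group, ahead of the 2390 shared regions, the 2176 regions called in Jurkat replicate 2 alone and the 2109 VCaP-specific regions.

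In VCaP cells, the shared regions were among the highest-scoring, whereas in Jurkat cells shared and Jurkat-specific regions had almost the same rank. The MACS score is −10 times the log10 of a peak's p-value and moves with depth, so each region was given the percentile of its score among the regions called in the same sample. With vehicle, the median percentile was 75.0 for shared regions and 35.8 for VCaP-specific regions, and with R1881 it was 72.9 and 31.3. In Jurkat replicate 1, the median was 55.7 for shared and 54.7 for Jurkat-specific regions, and in replicate 2 it was 65.1 and 58.0. The shared regions were higher in 4 of 4 samples, by a mean of 22.3 percentile points ± 21.1 (SD, n = 4), which did not pass an exact two-sided sign-flip permutation test (p = 0.125). That is the smallest p that 4 samples allow, and the test treats the 4 samples as exchangeable although 2 come from each line. With Jurkat replicate 2 left out, the difference in replicate 1 turned to −1.98 points. The difference was 40.4 points on average in VCaP and 4.12 in Jurkat, and the samples of the lines did not overlap (exact permutation test, two-sided, p = 0.333, the smallest p for 2 against 2).

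Along the score scale the contrast was graded in VCaP and shallow in Jurkat. When the regions of a sample were split into 10 equal bins by score, the share that was shared rose with vehicle from 3.60% in the lowest bin (interval 2.39 to 5.39%) to 84.3% in the highest (81.2 to 87.0%), with a rise at every step. With R1881 it went from 7.62% to 85.3%, again with a rise at every step. In Jurkat replicate 1, the share was 25.7% in the lowest bin (22.7 to 28.9%) and 39.8% in the highest (36.4 to 43.3%), and in replicate 2 it was 20.6% and 43.5%. Of the regions in the highest bin of Jurkat replicates 1 and 2, 55.6% and 48.5% were Jurkat-specific, against 7.69% and 6.73% that were VCaP-specific in the highest bin with vehicle and R1881. In the lowest bin, 30.1% and 22.7% were Jurkat-specific, so in Jurkat this share was higher in the highest bin too. The lowest Jurkat bins held more regions called in another combination of samples. The rise in Jurkat was thus not one relative to Jurkat-specific regions. In VCaP, the VCaP-specific share was 40.9% and 60.5% in the lowest bin.

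**Figure D2:**
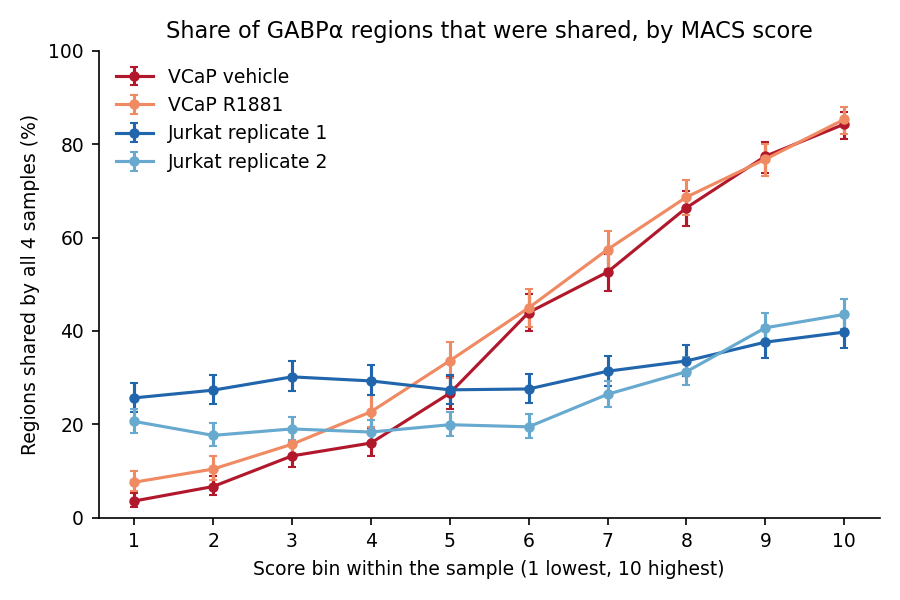
Share of a sample's regions that were shared by all 4 samples (y axis, %, with 95% Wilson intervals) in each of 10 equal bins of the MACS score within that sample (x axis, 1 lowest). The VCaP samples rise from 3.60% and 7.62% to 84.3% and 85.3%, and the Jurkat replicates from 25.7% and 20.6% to 39.8% and 43.5%. The Jurkat-specific share, which is not drawn, goes from 30.1% and 22.7% to 55.6% and 48.5%.

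Even at the shared regions, the order of scores was kept within a line more than between lines. Over the 2390 shared regions, Spearman's rho of the score was 0.956 between vehicle and R1881 and 0.794 between the Jurkat replicates, but between 0.317 and 0.434 for the 4 pairs of a VCaP and a Jurkat sample. These values describe regions, which are not replicates, and the samples of a line share their input. The position of the peak centre behaved in the same way, with a median offset of 15 bp between the VCaP samples and 16.5 bp between the Jurkat replicates, and of 24 to 27.5 bp between lines. The centres lay within 50 bp of each other at 90.5% and 87.5% of the shared regions within VCaP and within Jurkat, and at 73.2% to 79.9% between lines.

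Shared regions had wider high confidence peaks than line-specific regions in every sample. The median width was 351 bp for shared and 196 bp for VCaP-specific regions with vehicle, and 347 and 180 bp with R1881. In Jurkat replicate 1, it was 333 bp for shared and 177 bp for Jurkat-specific regions, and in replicate 2 it was 321 and 217 bp. The difference was positive in 4 of 4 samples with a mean of 145.5 bp ± 28.2 (SD, n = 4; exact sign-flip permutation test, two-sided, p = 0.125, the smallest possible). Width rose with score, so the comparison was repeated within 5 equal bins of the score in each sample, an alternative chosen after seeing the data. Shared regions were then the wider class in 5 of 5 bins of every sample, by a mean of 33.2 bp with vehicle, 33.9 bp with R1881, 149.9 bp in Jurkat replicate 1 and 85.6 bp in replicate 2.

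The MACS peaks around these pieces differed between classes mainly in Jurkat. The median MACS peak was 1273 bp wide at shared and 1122 bp at VCaP-specific regions with vehicle, and 1262 and 1136 bp with R1881. In Jurkat it was 1596 bp at shared and 896 bp at Jurkat-specific regions in replicate 1, and 1366.5 and 829 bp in replicate 2. Within the 5 score bins, the Jurkat difference stayed at 688 and 528 bp, whereas in VCaP the shared regions had the narrower MACS peaks, by −62.6 bp with vehicle and −74.7 bp with R1881.

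**Figure D3:**
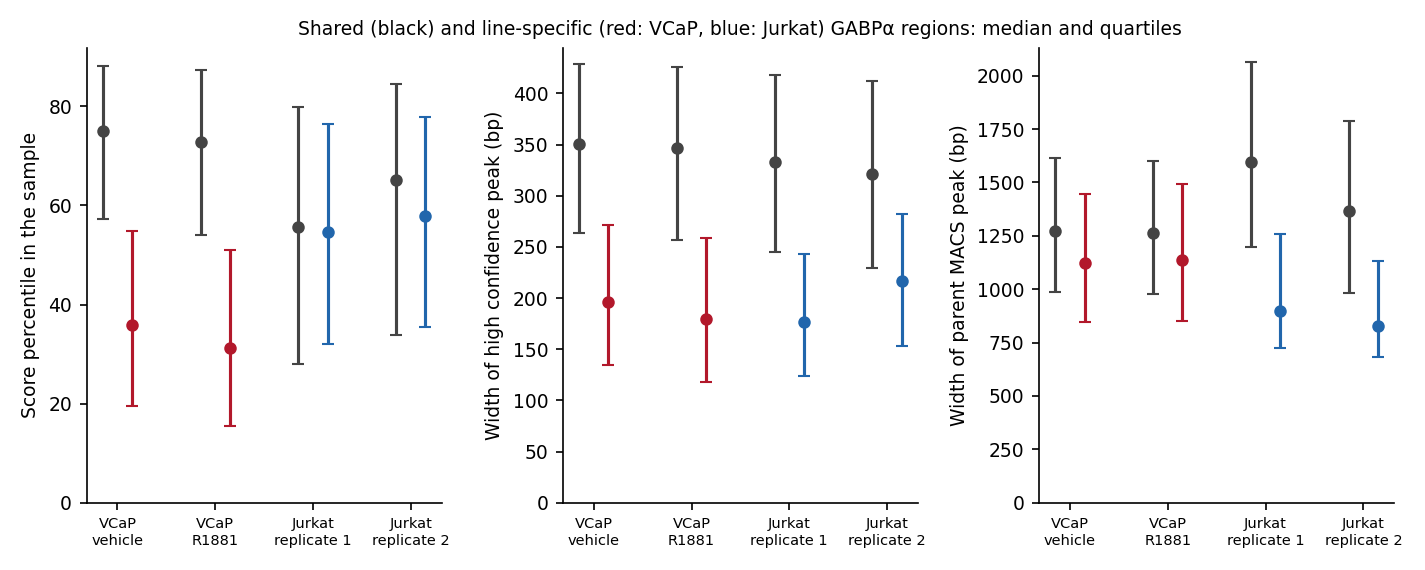
Median and quartiles (bars) of the score percentile, the width of the high confidence peak and the width of its MACS peak (y axes) for shared regions (black), VCaP-specific regions (red) and Jurkat-specific regions (blue) in each sample (x axis). The median score differs most between classes in VCaP (75.0 against 35.8 with vehicle) and the median MACS width in Jurkat (1596 against 896 bp in replicate 1). The median width of the high confidence peak is larger for shared regions in all 4 samples. The quartile ranges of both widths overlap between classes, except for the high confidence peak in Jurkat replicate 1.

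A MACS peak can hold several high confidence pieces, which MACS joined and SWEMBL kept apart. With vehicle, 18.8% of shared and 18.4% of VCaP-specific regions lay in a MACS peak with more than 1 piece, and with R1881 the shares were 19.9% and 18.8%, so that the 95% Wilson intervals of the classes overlapped in both samples. In Jurkat replicate 1, the shares were 27.8% of shared and 16.2% of Jurkat-specific regions, and in replicate 2 they were 26.7% and 16.5%. The mean difference was 5.83 percentage points ± 5.93 (SD, n = 4; exact sign-flip permutation test, two-sided, p = 0.125), and it was 1.88 points with Jurkat replicate 1 left out and 3.86 points without replicate 2. The mean number of pieces was highest in the highest of 10 score bins in every sample. Within the 5 score bins, shared regions had the lower share in 5 of 5 bins of both VCaP samples, on average 13.6% against 24.7% with vehicle and 15.8% against 26.7% with R1881, and the higher share in 5 of 5 bins of both Jurkat replicates, on average 27.3% against 16.2% and 26.2% against 15.7%. The mean over the 4 samples was then −0.10 points.

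The extreme case was 1 MACS peak around chrX:2556787-2560814 (hg18) with 14 pieces with vehicle, 15 with R1881, 14 in Jurkat replicate 1 and 13 in replicate 2, and a score of 3100 in all 4 samples. After merging, 10 shared regions lay there. A second such peak was found in Jurkat only. It held 12 and 11 pieces in the replicates at chr3:43027939-43034619, again with a score of 3100, and VCaP had no high confidence peak there and MACS peaks of at most 63.4 with vehicle and 69.3 with R1881. Another Jurkat-specific region, chrY:12843071-12843436, lay in a MACS peak with 5 pieces in replicate 1 and 8 in replicate 2, also with a score of 3100, and no MACS peak was called there in VCaP.

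The spacing of shared and line-specific regions differed little within 10 kb. With vehicle, 23.8% of shared and 25.2% of VCaP-specific regions had another region of the same sample within 10 kb, and with R1881 these shares were 23.3% and 22.8%. In Jurkat replicate 1, they were 27.5% of shared and 23.8% of Jurkat-specific regions, and in replicate 2 they were 28.5% and 28.0%. The mean difference was 0.84 percentage points ± 2.11 (SD, n = 4; exact sign-flip permutation test, two-sided, p = 0.625), with 3 of 4 samples positive. Its sign turned to −1.75 points without Jurkat replicate 1 and to −0.23 points without replicate 2. With a window of 100 kb, shared regions were ahead in 4 of 4 samples, by a mean of 3.07 points (65.4% against 64.2% with vehicle, 64.6% against 61.4% with R1881, 69.3% against 64.4% and 73.2% against 70.4% in Jurkat replicates 1 and 2). At 10 kb the mean was 2.93 points when line-specific regions with a MACS peak in the other line were left out. Both gave p = 0.125 in the exact sign-flip permutation test, the smallest possible. With SWEMBL intervals alone, shared regions were behind at 10 kb in 4 of 4 samples, by −0.26 to −4.45 points, with the same p in that test. They were also behind in 3 of 3 samples without Jurkat replicate 1. The direction at 10 kb thus depended on the setting.

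At short range, line-specific regions had neighbours of their own line more often than of the other. The class excludes overlap with the other line, which by itself lowers the second count, and the sets differ in size. Separate pieces of 1 MACS peak also count as neighbours of the same line, which by itself raises the first count. Of the Jurkat-specific regions, 21.6% had another Jurkat region within 10 kb and 8.66% had a VCaP region within that distance. Of the VCaP-specific regions, 21.1% had another VCaP region and 10.8% had a Jurkat region within 10 kb. Within 1 kb of a VCaP-specific region lay another VCaP region in 12.7% of cases and a Jurkat region in 2.70%. Within 100 kb, VCaP-specific regions had both kinds about equally, with a VCaP region for 58.6% and a Jurkat region for 57.6%, while Jurkat-specific regions had a Jurkat region for 60.8% and a VCaP region for 38.3%.

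A few dense groups of regions were seen in each class, listed here for the 100 kb windows that held most of them and therefore chosen by that count. The densest was Jurkat-specific, with 26 regions at chr16:44945874-44989018. Replicate 1 had 28 high confidence pieces there with MACS scores of 62.3 to 525, and replicate 2 had 45 with scores of 51.9 to 739, while the VCaP samples had 2 MACS peaks each with scores of at most 106. A further 6 Jurkat-specific regions lay at chr2:90960539-90975412, where no VCaP sample had a MACS peak. The densest shared group outside the X chromosome had 8 regions at chr19:60802592-60878572, with 7 MACS peaks in VCaP with vehicle and with R1881 and 6 and 7 in the Jurkat replicates. For VCaP-specific regions, the largest groups had 5 regions each. One of them, at chr10:134628515-134644808, had 3 MACS peaks in each VCaP sample, with scores up to 3100, and none in either Jurkat replicate.

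The chromosomes carried different shares of the high confidence peaks in the 2 lines. Chromosome 19 was the furthest apart in percentage points and chromosome Y by ratio (2.39 times in Jurkat). Chromosome 19, which is rich in genes, held 9.55% of the high confidence peaks with vehicle and 9.35% with R1881, but 6.83% in Jurkat replicate 1 and 5.82% in replicate 2. The lines did not overlap, and the Jurkat mean was 0.669 times the VCaP mean (exact permutation test, two-sided, p = 0.333, the smallest p for 2 against 2). Non-overlap was common, as it held for 19 of 24 chromosomes (79.2%), 12 higher and 7 lower in Jurkat. The largest ratios in favour of Jurkat were on chromosomes 13 (2.06% and 2.22% against 1.37% and 1.55%), 18 (1.94% and 1.87% against 1.38% and 1.45%) and Y (0.374% and 0.399% against 0.157% and 0.167%), each given for Jurkat replicates 1 and 2 against vehicle and R1881. Over all chromosomes, 1.62% of the peaks would have to move to another chromosome to turn the vehicle distribution into that with R1881, and 2.49% to turn one Jurkat replicate into the other, against 5.71% to 7.26% between lines. In Jurkat replicates 1 and 2, 1 MACS peak held 5 and 8 of the chromosome Y pieces. Of all MACS peaks, chromosome Y held 0.254% and 0.246% with vehicle and R1881 against 0.326% and 0.339% in Jurkat. Chromosome 19 held 5.56% and 5.30% against 2.97% and 2.79%, still lower in Jurkat. Chromosome 8 changed direction. It held 3.58% and 3.49% of high confidence peaks in VCaP against 3.97% and 4.24% in Jurkat. Of MACS peaks, it held 6.16% and 6.17% against 4.89% and 4.85%. The copy number of each chromosome in these lines was not measured here, and its part in these shares was not tested.

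**Figure D4:**
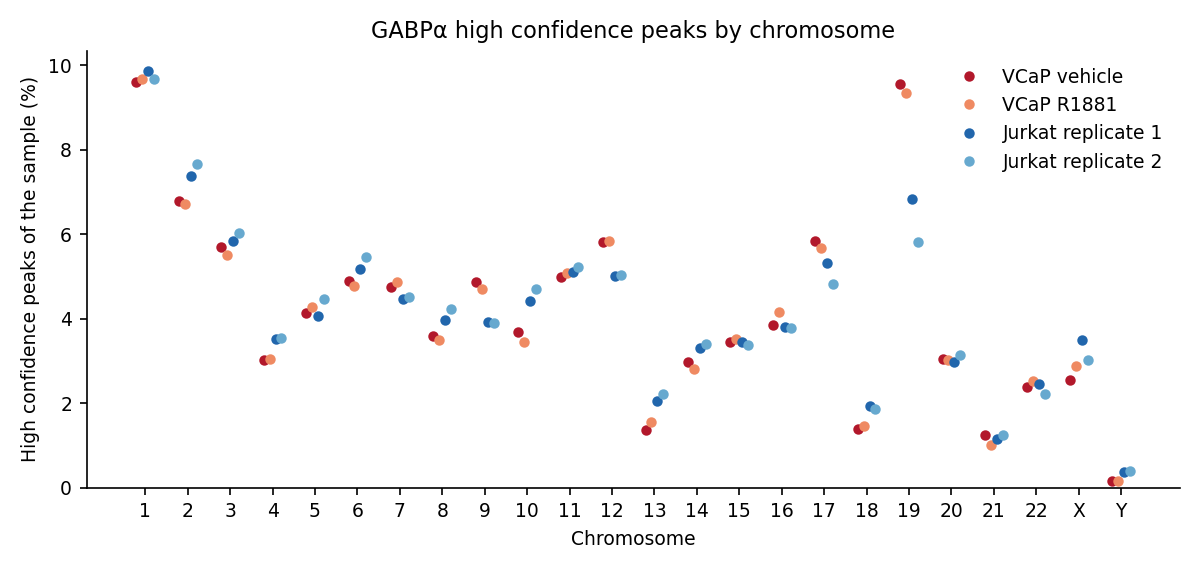
Share of each sample's GABPα high confidence peaks (y axis, %) on each chromosome (x axis), with 1 point a sample. On chromosome 19, the VCaP samples lie at 9.55% and 9.35% and the Jurkat replicates at 6.83% and 5.82%.

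Among the classes, the chromosome 19 share was lowest at Jurkat-specific regions. It held 11.05% of shared regions (interval 9.85 to 12.4%), 9.25% of VCaP-specific regions (8.08 to 10.6%) and 3.78% of Jurkat-specific regions (3.25 to 4.40%). Within the 5 score bins, its share in Jurkat was higher for shared than for Jurkat-specific regions in 5 of 5 bins of both replicates, on average 11.1% against 3.86% and 10.8% against 3.94%. In VCaP, shared regions were higher in 3 of 5 bins with vehicle and in 2 of 5 with R1881. The X chromosome followed another order, with 4.23% of shared regions (3.49 to 5.11%), 2.95% of Jurkat-specific regions (2.48 to 3.50%) and 1.14% of VCaP-specific regions (0.766 to 1.69%). Of the 137 regions of the VCaP set on X, 73.7% were shared (65.8 to 80.4%). Among the 101 shared regions on X, 10 lay in the 1 MACS peak around chrX:2556787-2560814, and the intervals treat these as independent.

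Another VCaP GABPα sample, labelled t0, did not define the classes and had a smaller set of 2851 high confidence peaks. The labels do not say what t0 is, and it has its own input. It had a high confidence peak at 75.4% of shared regions (73.6 to 77.0%), at 26.3% of VCaP-specific regions (24.4 to 28.2%) and at 0.119% of Jurkat-specific regions (0.0508 to 0.278%), against 19.9% of all 13653 regions. The shared minus VCaP-specific difference was 49.1 percentage points (95% Newcombe interval 46.5 to 51.6). MACS peaks at t0 gave the same order, at 94.9%, 61.9% and 3.85% of the classes, against 35.8% of all regions. Because shared regions score higher in VCaP, they were also compared within the 5 score bins, where the t0 share was higher for shared regions in 5 of 5 bins of both VCaP samples, on average by 15.8 points for bins of the vehicle score and 17.3 points for bins of the R1881 score. In the highest vehicle bin, t0 had a peak at 93.7% of shared and 65.8% of VCaP-specific regions. The 3 VCaP samples are 1 each, so these shares have no replicate error.

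ERG peaks fell more often on line-specific than on shared GABPα regions, in each line on the regions of that line. In Jurkat, the ERG sample of replicate 1 had a MACS peak at 0.377% of shared regions (0.198 to 0.714%) and 13.3% of Jurkat-specific regions (12.3 to 14.4%), against 7.37% of all regions, and that of replicate 2 at 1.13% (0.778 to 1.64%) and 24.97% (23.7 to 26.3%), against 13.7%. The mean difference was −18.4 percentage points ± 7.72 (SD, n = 2). At VCaP-specific regions, the Jurkat ERG shares were 0.0474% and 0.379%. In VCaP, the ERG sample with vehicle had a MACS peak at 1.76% of shared regions (1.30 to 2.37%) and 9.06% of VCaP-specific regions (7.90 to 10.4%), against 5.49% of all regions, and the sample with R1881 at 2.43% (1.88 to 3.12%) and 11% (9.74 to 12.4%), against 6.62%. At Jurkat-specific regions, the VCaP ERG shares were 2.81% and 3.07%. The 4949 regions called in another combination had an ERG MACS peak at 8.83% and 15.98% in Jurkat replicates 1 and 2. In VCaP these regions had one at 8.04% with vehicle and 9.80% with R1881. Each of these shares was nearer to that of the line-specific regions than to that of shared regions, so a higher ERG share was not particular to line-specific regions. The median MACS score of these ERG peaks was 98.3 and 102 at Jurkat-specific regions in Jurkat replicates 1 and 2, against 64.5 and 69.8 for all ERG MACS peaks of those samples, and 143 and 197 at VCaP-specific regions with vehicle and R1881, against 68.8 and 77.5. Within the 5 bins of the GABPα score, the ERG share was lower at shared than at line-specific regions in 5 of 5 bins of every GABPα sample. In VCaP the mean difference shrank there to −4.03 points for ERG with vehicle in bins of the vehicle score and to −4.88 for ERG with R1881 in bins of the R1881 score, and in the lowest bin of the vehicle score ERG with R1881 was at 11.1% of shared and 11.2% of VCaP-specific regions. In Jurkat it was −12.7 points for ERG replicate 1 in bins of replicate 1 and −22.7 for ERG replicate 2 in bins of replicate 2. At high confidence, ERG was found at 4.35% and 6.30% of Jurkat-specific regions (2.72% and 3.42% of all regions) and at 0.0837% and 0.251% of shared regions in Jurkat replicates 1 and 2, a mean difference of −5.16 points. The high confidence ERG peaks of VCaP with vehicle and R1881 were found at 1.90% and 4.41% of VCaP-specific regions (1.16% and 2.13% of all regions) and at 0.293% and 0.711% of shared regions. The labels give for ERG the catalogue number that the study's methods give to another antibody, so ERG is named here as labelled.

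**Figure D5:**
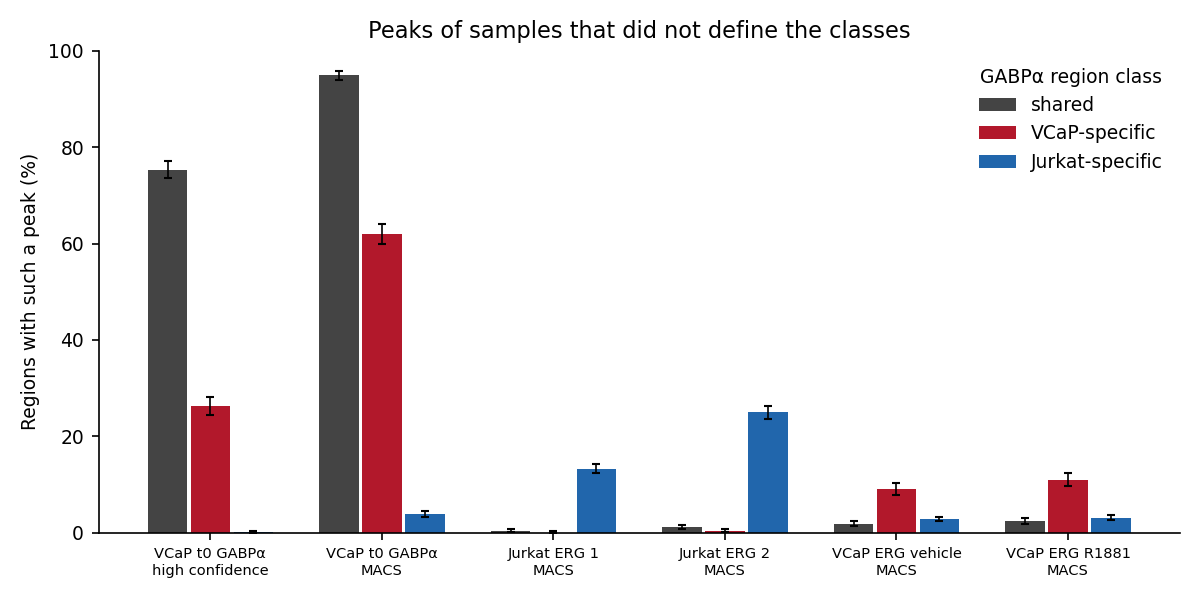
Share of shared (black), VCaP-specific (red) and Jurkat-specific (blue) GABPα regions (y axis, %, with 95% Wilson intervals) at which a sample that did not define the classes had a peak (x axis). The t0 GABPα peaks fall most often on shared regions (75.4% at high confidence), Jurkat ERG peaks on Jurkat-specific regions (13.3% and 24.97%) and VCaP ERG peaks on VCaP-specific regions (9.06% and 11%).

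Regions called in 1 line only differed in how often the other line had a call below high confidence. Of the Jurkat-specific regions, 3553 (84.5%) had neither a MACS peak nor a SWEMBL interval in either VCaP sample, and of the VCaP-specific regions, 1026 (48.6%) had neither in either Jurkat replicate. Of the VCaP-specific regions, 170 (8.06%) overlapped a MACS peak of at least 1 Jurkat replicate, and of the Jurkat-specific regions, 629 (14.96%) overlapped a MACS peak of at least 1 VCaP sample. By sample, the first share was 7.21% and 5.41% in Jurkat replicates 1 and 2, against 72% and 73.2% of all regions, and the second was 12.7% and 12.2% with vehicle and R1881, against 54.9% and 54.5%, where all regions include the called ones. The median scores of these peaks were 135 and 134 in Jurkat replicates 1 and 2 and 147 and 128 with vehicle and R1881. The deposited SWEMBL intervals gave another picture. Of the VCaP-specific regions, 897 (42.5%, interval 40.4 to 44.7%) overlapped a SWEMBL interval of Jurkat replicate 1 and 659 (31.2%, 29.3 to 33.3%) one of replicate 2, against 67.8% and 75.8% of all regions, which include the called ones. None of these 897 and 659 regions had a MACS peak in the same replicate, as an interval inside one would have counted as high confidence. In the other direction, 22 (0.523%) and 19 (0.452%) of the Jurkat-specific regions overlapped a SWEMBL interval with vehicle and R1881, against 45.1% and 41.8% of all regions. SWEMBL intervals without a MACS peak numbered 166 (2.54% of its intervals) with vehicle and 149 (2.43%) with R1881, but 2487 (23.1%) and 2059 (17.4%) in Jurkat replicates 1 and 2. Of those in Jurkat, 53.5% and 45.9% overlapped high confidence peaks of both VCaP samples, against 15.1% and 14.1% in the opposite direction. The same shares over all SWEMBL intervals were not computed. Counted over regions, 35.4% of the high confidence Jurkat set was called with both VCaP treatments. In the opposite direction, 46.5% of the VCaP set was called in both Jurkat replicates, so the 2 directions have different bases.

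The VCaP-specific class was split by what was called in Jurkat. In 638 of them (30.3%) both Jurkat replicates had a SWEMBL interval, and in 1026 (48.6%) neither replicate had an interval or a MACS peak. The first group had a median vehicle percentile of 47.2 and a median vehicle width of 267.5 bp, and the second group 29.8 and 171.5 bp. The t0 sample had a high confidence peak at 47.2% of the first group (43.3 to 51.1%) and at 21.5% of the second (19.1 to 24.2%). ERG with R1881 had a MACS peak at 0.313% of the first and 19.01% of the second, next to 2.43% of shared regions. The remaining groups were smaller and had lower t0 shares than both. Where only 1 Jurkat replicate had a SWEMBL interval (280 regions), the median vehicle percentile was 27.7 and t0 had a peak at 5.36% (3.27 to 8.65%). Where Jurkat had a MACS peak and no SWEMBL interval (165 regions), these values were 48.6 and 10.3% (6.53 to 15.9%), and ERG with R1881 was at 20%. When SWEMBL intervals alone were used to define regions, a choice made after seeing the data, 68.2% of the VCaP set was shared, and 1250 regions were VCaP-specific, against 46.5% and 2109 with both callers. The share of the Jurkat set changed less, from 35.4% to 41.2%.

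The classes were also set from 1 sample of each line and read in the other sample of that line, again a choice made after seeing the data. The other sample took no part in setting the class. However, the regions were still those merged from all 4 samples, and the samples of a line share an input. Of the 2798 regions called with vehicle and in Jurkat replicate 1, R1881 recovered 95.6% (94.8 to 96.3%) and Jurkat replicate 2 recovered 89.1% (87.9 to 90.2%). Of the 3316 regions called with vehicle and not in Jurkat replicate 1, R1881 recovered 74.2% (72.7 to 75.7%) and Jurkat replicate 2 called 11.1% (10.1 to 12.2%). Of the 4915 called in Jurkat replicate 1 and not with vehicle, Jurkat replicate 2 recovered 86.5% (85.5 to 87.4%) and R1881 called 1.24% (0.967 to 1.59%). Thus the regions of 1 line only were recovered less often within their own line than the regions of both lines, by a wider margin in VCaP than in Jurkat. Median percentiles in the held-out samples were 70.5 and 34.6 with R1881 for the shared and VCaP classes, and 64.8 and 58.0 in Jurkat replicate 2 for the shared and Jurkat classes.

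The regions with the highest mean percentile in each class show how these patterns look at single sites. Scores tie at 3100, the value of 268 and 303 MACS peaks with vehicle and R1881 and of 35 and 44 in Jurkat replicates 1 and 2, so that ranks near the top rest on few distinct values. Among shared regions, the highest was chrX:103287944-103288787, with a score of 3175 with vehicle and 3100 in each of the other samples, and with a t0 score of 784. The next on the list were chrX:99961511-99962291 and chrX:108666470-108667021, and then chr19:60355108-60355590 and chr5:131553726-131554185. The score of chrX:99961511-99962291 was 3162 with vehicle, 3100 with R1881, 2754 in Jurkat replicate 1 and 2428 in replicate 2. At each of these 5 regions t0 had a high confidence peak, and no ERG sample used here had a MACS peak. Both were common among high-scoring shared regions. In the highest of the 5 bins of the vehicle score, t0 had a peak at 93.7% of shared regions. The VCaP ERG samples with vehicle and R1881 had a MACS peak at only 0.405% and 0.911% of them.

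The VCaP-specific regions with the highest percentile came from only 2 MACS peaks. Of the 5, 4 were pieces of the chromosome 10 peak described above, chr10:134628515-134628657 first among them, with a score of 3100 with vehicle and R1881, 3070 at t0, and no MACS peak or SWEMBL interval in Jurkat. The remaining region, chr9:135272734-135272849, scored 3161 with vehicle and 3178 with R1881, but Jurkat had MACS peaks of 1427 and 633 over the same bases, whose high confidence pieces began 10 and 11 bp beyond the region.

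The Jurkat-specific regions with the highest percentile lay on 3 chromosomes. The region chr10:49678250-49678749 scored 3100 and 3200 in the Jurkat replicates, against MACS peaks of 68.7 with vehicle and 98.0 with R1881. The region chr21:14840349-14840762 scored 3228 and 3090 in Jurkat and had a MACS peak of 104 with R1881 and none with vehicle. It was the only named region where ERG was called in both Jurkat replicates, with MACS scores of 71.5 and 62.9. ERG in VCaP with R1881 also had a MACS peak there, with a score of 64.1, and ERG with vehicle had none. At chr1:178730143-178730649 and chr10:50213494-50213958, both Jurkat scores were 3100 and no MACS peak was called in VCaP. In contrast, chr1:247087512-247087659 was Jurkat-specific only as a piece, since both VCaP samples had a MACS peak of 3100 over it, with high confidence pieces 100 bp and 247 bp away with vehicle and R1881.

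Some shared regions stood near the top of one line and near the bottom of the other. The region chr10:1092452-1093014 scored 3172 with vehicle and 3100 with R1881, at percentiles of 99.6 and 96.0, but 98.8 and 82.6 in the Jurkat replicates, at percentiles of 9.72 and 6.78. At chr10:27026105-27026724, both VCaP samples scored 3100, and the Jurkat replicates 65.5 and 99.7. In the opposite direction, chr12:106081399-106081739 scored 2807 and 2844 in the Jurkat replicates, at percentiles of 98.7 and 98.9, and 273 and 282 with vehicle and R1881, at percentiles of 13.7 and 11.6. The region chr6:33258954-33259819 scored 2117 and 1982 in Jurkat and 289 and 227 in VCaP. Across the 2309 shared regions outside chromosome 8 and unplaced contigs, which were not named by the rule used, the VCaP mean percentile minus the Jurkat mean percentile had a median of 12.5, with quartiles of −2.83 and 32.6. It was over 50 points at 227 regions and the Jurkat mean was higher by over 50 points at 58.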

How the data were processed

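ChIP-seq of GABPα was compared between 2 VCaP samples (vehicle and R1881) and 2 Jurkat replicates, with a VCaP t0 GABPα sample and 4 ERG samples (Jurkat replicates 1 and 2, VCaP vehicle and R1881) as readouts that did not define the classes. Per the labels and the study's methods, the authors aligned reads to hg18 with BWA 0.5.5, dropped duplicate reads and reads aligned with low quality, and ran peak calling on each sample against input with MACS (version not given in the sources used here) and SWEMBL. The deposited MACS files hold peak positions and a score, −10 times the log10 of the p-value. The authors' high confidence files hold pieces of peaks found by both callers. In the 4 samples every such piece was tested to be identical to a SWEMBL interval and to lie inside a MACS peak, whose score it carries. The ERG high confidence files of 2 samples have no score column, and only their positions were used. SWEMBL files were used for their positions.

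High confidence pieces of the 4 samples were merged where they overlapped by at least 1 bp, and readouts were counted by the same overlap. The width of a region in a sample is that of its highest-scoring piece. Scripts used Python 3.11.15, numpy 2.4.6, scipy 1.17.1 and pandas 2.3.3. Merging was checked against bedtools 2.31.1, and class assignment was tested on simulated data. Shares have 95% Wilson intervals over regions. Differences within samples were tested over the 4 samples by exact sign-flip permutation, and single values between lines by exact permutation.

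Alternatives were a minimum overlap of 50% of the shorter interval, whole MACS peaks, a score of at least 100, the 5000 highest-scoring peaks, stricter line-specific classes, each sample left out, windows of 1 kb and 100 kb, MACS peaks at t0 and high confidence ERG peaks. SWEMBL intervals alone, classes without SWEMBL intervals in the other line, held-out samples and 5 equal bins of the score were added after seeing the data. Regions were named by rule, namely the 5 with the highest mean percentile in each class, among shared regions those furthest apart between lines, and those with most pieces in 1 MACS peak, without chromosome 8 and unplaced contigs. Members, classes and lists were chosen with earlier results of these data known. Genes and sequences at the regions are not given, as no hg18 sequence or annotation was used here. The 6 input samples have no peak list among the files analysed here.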

Additional observations from a re-analysis of the deposited data

Results flagged for a closer look

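In 3 measures, the mean difference between shared and line-specific regions within score bins had opposite signs in the 2 lines, whereas the width of the high confidence peak did not. The t0 share cannot be read in this way. Jurkat-specific regions lack a high confidence peak in the other VCaP samples by definition, so a higher t0 share at shared regions was nearly given in Jurkat. The difference between the lines was not tested beyond the sign of each sample. The share of regions in a MACS peak with more than 1 piece, averaged over the 5 equal bins of the score, was −11.0 percentage points for shared minus line-specific regions with vehicle and −11.0 with R1881, against 11.1 and 10.5 in Jurkat replicates 1 and 2. The median width of the MACS peak differed by −62.6 bp and −74.7 bp in the VCaP samples and by 688 bp and 528 bp in the Jurkat replicates. The share on chromosome 19 differed by −1.63 and −2.30 percentage points in the VCaP samples and by 7.22 and 6.87 in the Jurkat replicates, and single bins in VCaP went both ways.

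The SWEMBL intervals that no MACS peak covers lie outside the high confidence sets. Both Jurkat replicates had such an interval at 638 VCaP-specific regions, and both VCaP samples had one at 18 Jurkat-specific regions.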

How the results depend on the processing

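The mean over samples of the score percentile and of the width stayed higher for shared regions under all 12 and 13 alternatives tried for them. In Jurkat replicate 1 alone, the percentile difference turned to −1.98 points without replicate 2 and to −2.99 with SWEMBL intervals alone. No alternative could take their test past 0.05, since 4 samples allow no p below 0.125 and 3 samples none below 0.25. The number of chromosomes without overlap was 18 to 22 of 24 under the 9 alternatives tried for it. It was 21 or 22 with 1 sample left out, where 1 line has a single sample and non-overlap is easier to reach. The share of the VCaP set that was shared was 40.5% with MACS scores of at least 100, 29.4% with the 5000 highest-scoring peaks and 68.2% with SWEMBL intervals alone, and ranged from 40.2 to 53.5% with 1 sample left out. For the Jurkat set these values were 34.0%, 33.6%, 41.2% and 29.2 to 37.0%. With the 5000 highest-scoring peaks, fewer regions were compared, and 1261 were shared and 2423 Jurkat-specific. Leaving out a sample gave 2446 to 2753 shared, 2397 to 3030 VCaP-specific and 4259 to 6515 Jurkat-specific regions. VCaP-specific regions numbered 1250 with SWEMBL intervals alone, 1026 without any MACS peak or SWEMBL interval in Jurkat and 3316 in the held-out analysis, where 1 sample of each line sets the class. The difference in neighbours within 10 kb reversed to −1.49 points with whole MACS peaks and −2.63 with SWEMBL intervals alone, and ranged from −1.75 to 0.63 with 1 sample left out. The difference in pieces reversed to −0.10 points within the 5 score bins. The cause was not tested. The t0 difference was 34.4 points with the 5000 highest-scoring peaks, 33.0 with MACS peaks at t0, 53.8 with the strictest classes, 43.9 in the held-out analysis, 16.6 within the 5 score bins and 38.6 to 53.5 with 1 sample left out. The Jurkat ERG difference was −5.16 points with high confidence ERG peaks.

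No paired analysis was possible because the VCaP samples carry treatments and no replicate numbers, so nothing in the labels pairs them with the Jurkat replicates. Each line has 2 samples that share an input, read depth is unknown, and a region without a call is not shown to be unbound. Intervals over regions cover counting error only.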
